A study of Mus musculus with 4 samples.

Results

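Antiviral interferon-stimulated genes are the genes that cells turn on to block the entry, copying and assembly of viruses. In macrophages, TLR4 reaches them through the adaptor TRIF and the factor IRF3, which drive the interferon-beta gene. Secreted type I interferon binds its receptor IFNAR on the same and neighbouring cells, the kinases JAK1 and TYK2 are activated, and STAT2 and IRF9 enter the complex ISGF3. ISGF3 and IRF factors bind the interferon-stimulated response element (ISRE) in the promoters of these genes. A low interferon tone without any stimulus keeps many of them at a basal level in resting macrophages.

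A list of 37 such genes was followed here, and 34 of them had a probe set with a single gene symbol on the array, out of 18193 genes measured in all. Isg15 and Ifi205 were found only on probe sets annotated with several symbols and Ifi44 on no named probe set, so no value is given for these 3 genes. Each gene was represented by its brightest probe set over the 4 arrays, and 16 of the 34 genes had further probe sets that served as a check. Values of these genes did not choose the list, although results from these arrays were known when it was drawn up.

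The cells were adherent peritoneal macrophages elicited with thioglycollate from mice labelled as strain C57BL6/J. All mice carried the floxed Setdb1 allele on both chromosomes (Setdb1 fl/fl). WT mice carried no Cre, whereas KO mice were LysM Cre/+:Setdb1 fl/fl, in which Cre is driven by the lysozyme M gene in macrophages and other myeloid cells including neutrophils. Setdb1 encodes a histone H3K9 methyltransferase. The Cre allele and the deletion came together, and their parts in any difference between KO and WT cannot be told apart. Cells of each genotype received vehicle or lipid A, the active part of LPS, for 4 h. Lipid A was used at 10 ng/ml according to the series description and at 10 µg/ml according to the sample labels. The age and sex of the mice and the number pooled are not given in the sources used here. Each of the 4 conditions was measured on 1 Affymetrix array, so there is no replicate check, and no test or error between mice can be given for any value.

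The values are linear signals of probe sets, which depend on the probes as well as on the RNA and therefore compare arrays and not genes. The median signal of an array lay between 65.1 and 84.2 and stood in for background. A signal under the median of its array was raised to that median, the fold is then written as at least, and no fold is given where both signals were under it. The spread between probe sets of the same gene gave a technical yardstick: its SD was 0.39 to 0.46 on the log2 scale for the differences between 2 arrays, which as a fold is 1.31 to 1.38. A gene was counted as different when its signals were over 2-fold apart. Bulk RNA cannot tell fewer cells of a type from less RNA per cell.

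Promoter sequence was examined first, because the ISRE is the element through which these genes are known to respond. RefSeq windows of 300 bases (250 before the start site and 50 after it, build GRCm38.p6) were at hand for 28 of the 37 listed genes, in 37 windows. The ISRE core, GAAA followed by any 2 bases and GAAA, was searched on both strands. It was present in 17 of the 37 windows (45.9%), against 1131 of all 32851 windows (3.44%). By gene, 15 of 28 (53.6%) held a core, against 3.99% of the 27025 genes with a window. The core of the gamma-activated site (TTC, any 3 bases and GAA) was present in 9 of the 37 windows (24.3%), against 8.3% of all windows. Of the 26 ISRE cores, 18 lay before the start site and 8 after it, 9 overlapped another ISRE core and 2 overlapped a gamma-activated core. A match describes these letters only, and a window without one says nothing of the factor.

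The stretches below carry cores before the start site of some of the listed genes, and not all of these genes differed between genotypes. They are printed 5′ to 3′ on the strand of the gene. The cores are in capitals, with 10 bases on either side where the window before the start site allowed it. A core on the opposite strand reads TTTC, any 2 bases and TTTC.
Ifit1, chr19:34640775-34640823, plus strand, 2 cores: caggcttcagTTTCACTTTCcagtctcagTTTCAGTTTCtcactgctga
Ifit3, chr19:34583363-34583426, plus strand, 2 cores: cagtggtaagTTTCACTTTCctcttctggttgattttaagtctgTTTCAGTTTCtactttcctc
Ifit1bl1, chr19:34602053-34602082, minus strand, 1 core of 2 in the gene's 2 windows: actctgtaggTTTCATTTTCtgtaggttgg
Oas1a, chr5:120907526-120907555, minus strand, 2 cores: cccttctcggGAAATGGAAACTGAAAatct
Oas3, chr5:120777715-120777744, minus strand, 1 core: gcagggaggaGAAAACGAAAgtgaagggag
Rsad2, chr12:26456553-26456582, minus strand, 1 core: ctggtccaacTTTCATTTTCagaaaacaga
Bst2, chr8:71537577-71537612, minus strand, 2 cores: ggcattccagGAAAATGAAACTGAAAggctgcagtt
Ifit1 and Ifit3 share the same pair of cores, TTTCACTTTC and TTTCAGTTTC, in the same order. In Bst2 and Oas1a the cores overlap, so that 3 repeats of GAAA stand in a row.

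**Figure D1:**
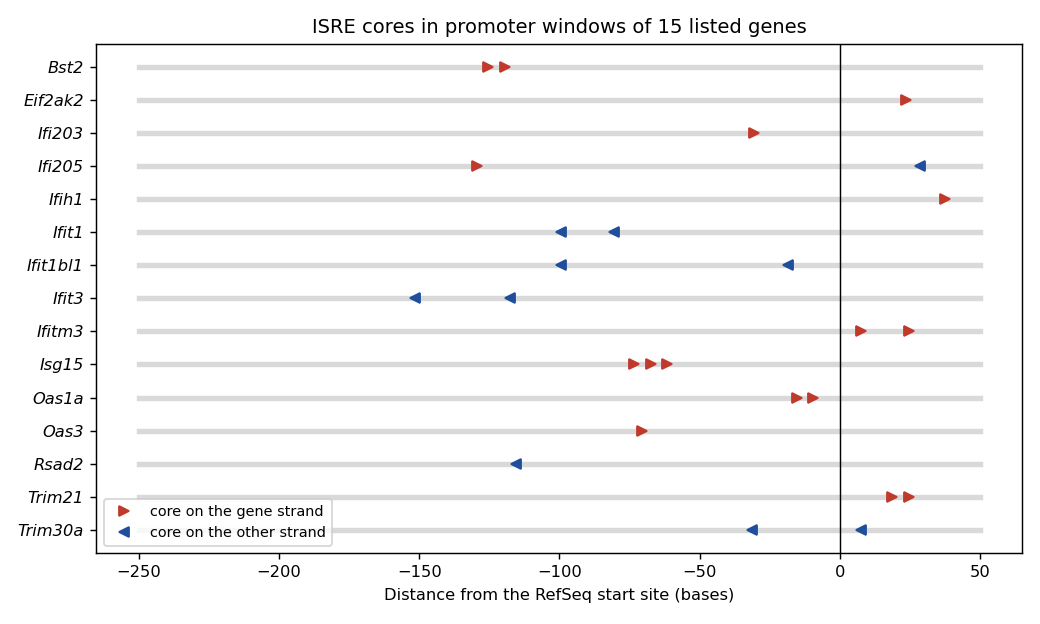
Positions of the ISRE core in the RefSeq promoter windows of the 15 listed genes that hold one. The x axis gives the distance from the start site in bases, each grey line is a window from 250 bases before to 50 after it (windows of a gene with several start sites are laid over each other), and triangles mark cores on the gene's strand (red) or the other strand (blue). Of 26 cores, 18 lie before the start site and 8 after it.

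Signals of nearly the whole list were higher with lipid A in both genotypes. In WT macrophages, 33 of 34 genes exceeded their vehicle signal over 2-fold, against 3.80% of all genes, and the median of the list was 7.35-fold (2.88 on the log2 scale). In KO macrophages, 32 of 34 did, against 3.82% of all genes, with a median of 7.57-fold (log2 2.92). No gene of the list was over 2-fold lower in either genotype, where 2.52% of all genes were in WT and 6.61% in KO. The exception in WT was Bst2, at 1.86-fold, and those in KO were Ifi203, at 1.15-fold, and Samhd1, at 1.76-fold. Over 3-fold, the counts were 29 in WT and 27 in KO, against 1.54% and 2.06% of all genes. Among genes at or above the median on all 4 arrays, 28 of 29 listed genes were over 2-fold higher in WT, against 5.21%, and 27 in KO, against 6.09%. The log2 responses of the 34 genes in WT and KO, which share no array, went together (r = 0.90, rho = 0.90), as did those of all genes measured on all 4 arrays to a lesser degree (r = 0.73 over 9047 genes). Genes are not independent replicates, so these correlations only describe the arrays.

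**Figure D2:**
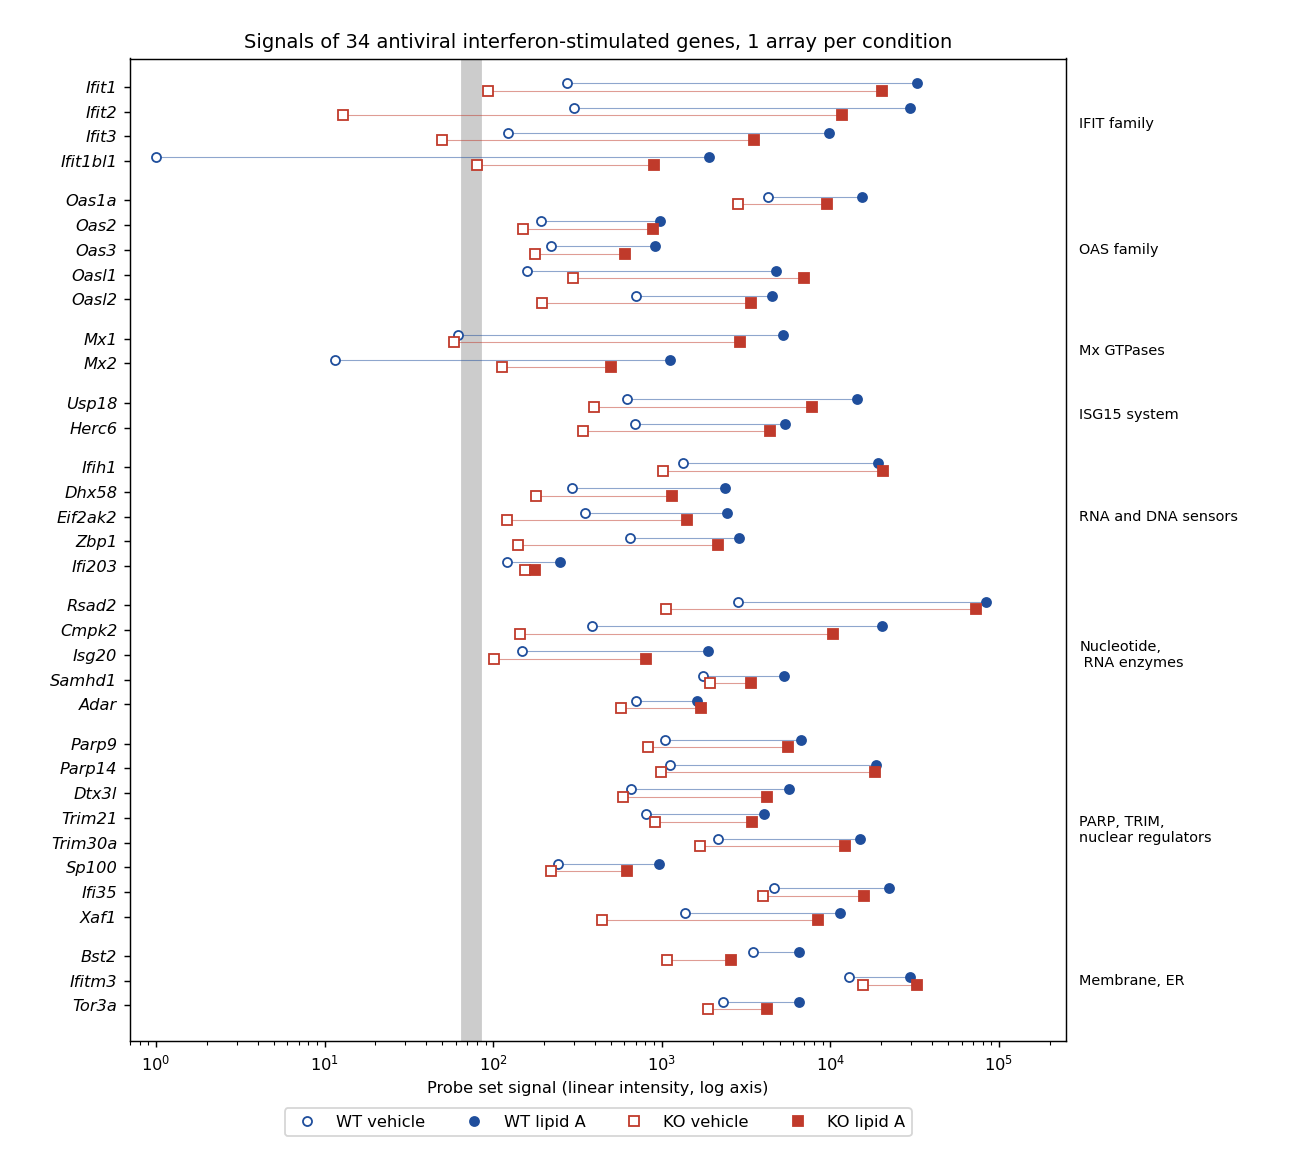
Probe set signals of the 34 genes on the 4 arrays, on a log axis, ordered by role, with WT in blue circles, KO in red squares, vehicle open and lipid A filled. The grey band spans the medians of the 4 arrays, 65.1 to 84.2. Within each genotype the lipid A signal lies to the right of the vehicle signal for every gene, and Ifit2, Ifit3, Ifit1bl1, Mx1 and Mx2 reach under the median on at least 1 vehicle array.

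**Figure D3:**
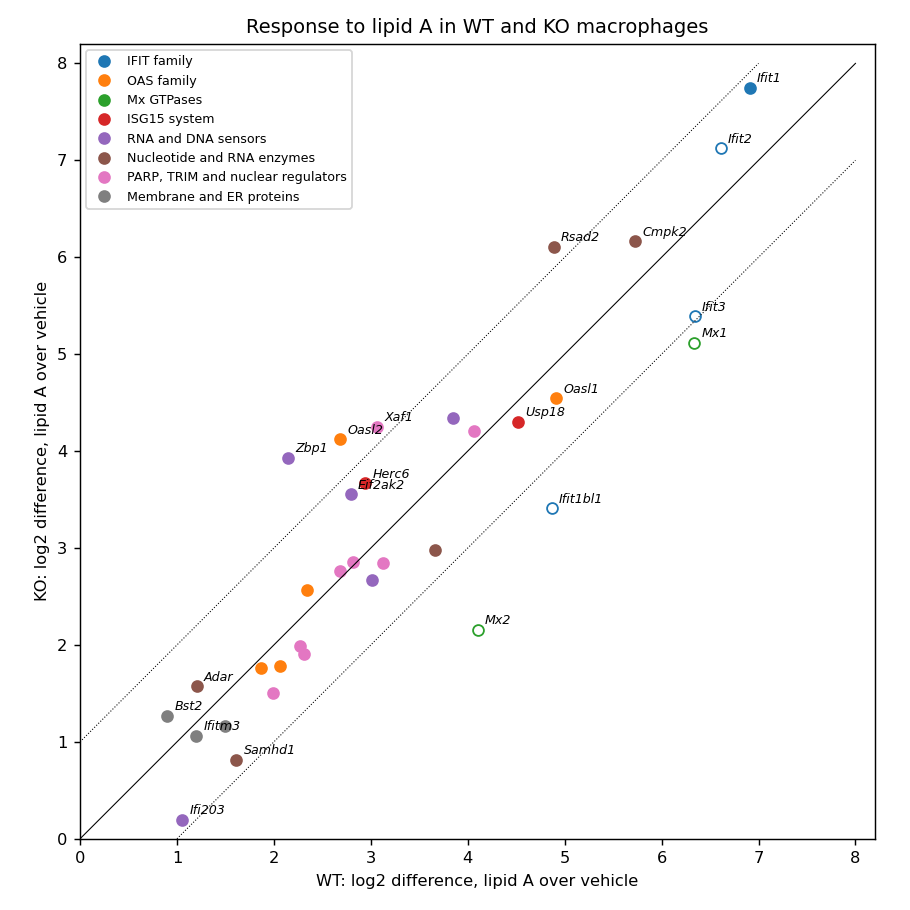
Response to lipid A of the 34 genes as log2 of lipid A over vehicle, WT on the x axis and KO on the y axis, coloured by role. Open symbols are genes with a signal under the array median, whose response is a lower bound, the solid line marks equal responses and the dotted lines a 2-fold gap. Ifit1 stands highest on both axes, at 6.91 and 7.75, and Ifi203 lowest in KO, at 0.20.

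Between genotypes the list leaned to lower signals in KO. With vehicle, 10 of 34 genes were over 2-fold lower in KO than in WT macrophages, against 1.36% of all genes, and 0 were over 2-fold higher, against 3.45% of all genes. The list's median was 1.28-fold lower (log2 -0.35, against 0.00 for all genes), and 26 of 34 genes were lower by any amount, against 25% of all genes, a share that counts the many genes under background as equal. Among genes at or above the median on all 4 arrays, 9 of 29 listed genes were over 2-fold lower, against 2.10%. Of these 29, 24 were lower by any amount, against 42.7% of such genes. With lipid A, 7 of 34 were over 2-fold lower in KO, against 2.65% of all genes, and 0 were higher, against 2.90%. The median was then 1.46-fold lower (log2 -0.55), and 30 of 34 were lower by any amount, against 34.2% of all genes. On the genes measured on all 4 arrays, 3 of 29 were over 2-fold lower, against 3.82%, and 25 of 29 were lower by any amount, against 51.3%. Over 3-fold, the counts were 5 with vehicle, against 0.412% of all genes, and 0 with lipid A, against 0.445%.

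The genes past 2-fold were sorted by treatment. Over all genes, 1.36% were over 2-fold lower in KO with vehicle and 2.65% with lipid A. The share of all genes in each class below was not counted, so the classes only describe the list. Ifit2 and Bst2 were over 2-fold lower in KO with vehicle and with lipid A. Another 8 genes, Ifit1, Oasl2, Herc6, Eif2ak2, Zbp1, Rsad2, Cmpk2 and Xaf1, passed 2-fold with vehicle only, and of these Cmpk2 came closest to it with lipid A, at 1.97-fold. A further 5, Ifit3, Ifit1bl1, Mx2, Dhx58 and Isg20, passed it with lipid A only. The remaining 19 stayed within 2-fold under both, and Adar, Parp14, Trim21 and Ifitm3 differed by at most 1.23-fold under both. Across the 34 genes the genotype difference with vehicle and that with lipid A gave r = 0.29 and rho = 0.26, against r = 0.45 over the 29 genes measured on all 4 arrays and r = 0.38 over all 9047 such genes. Of the 34, 24 genes were lower in KO under both treatments, 2 were higher under both and 6 pointed in opposite directions, while of the 9047 genes 2423 were lower under both, 2966 higher under both and 3658 opposite. Many of these differences are smaller than the technical yardstick of 1.34-fold with vehicle and 1.33-fold with lipid A.

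**Figure D4:**
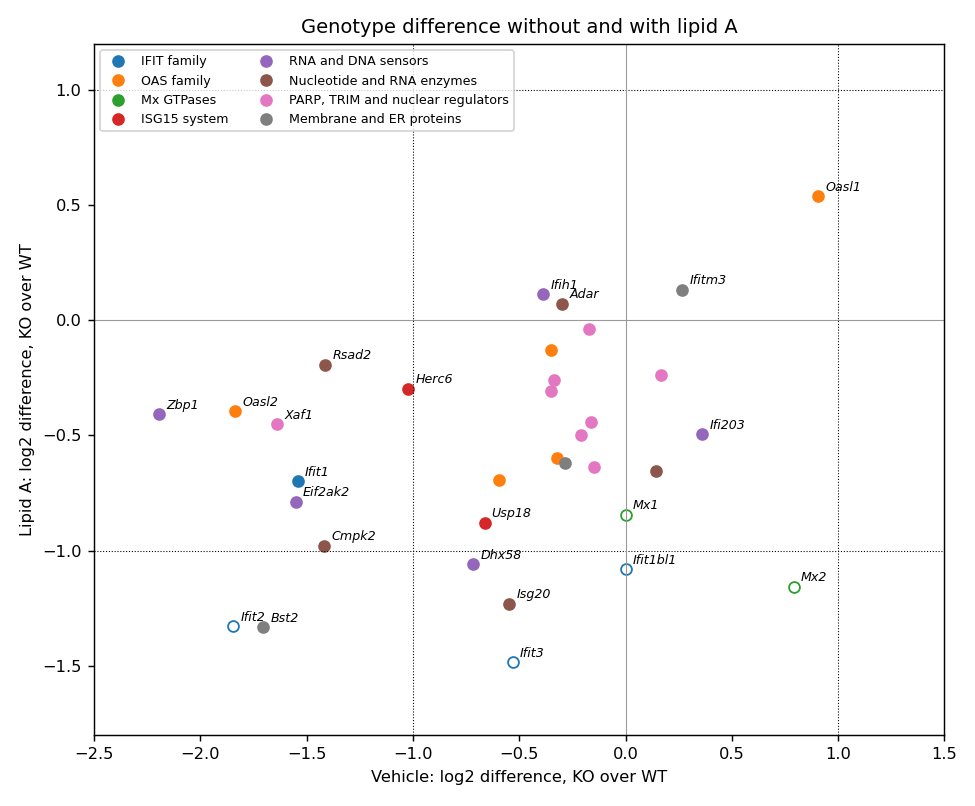
Difference between genotypes as log2 of KO over WT for the 34 genes, with vehicle on the x axis and with lipid A on the y axis, coloured by role. Dotted lines mark 2-fold, and open symbols are genes with a signal under the array median on some array. As plotted, with signals under the median raised to it, Zbp1 lies farthest left, at -2.19, Ifit3 lowest, at -1.48, and Oasl1 stands apart at 0.90 and 0.54.

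**Figure D5:**
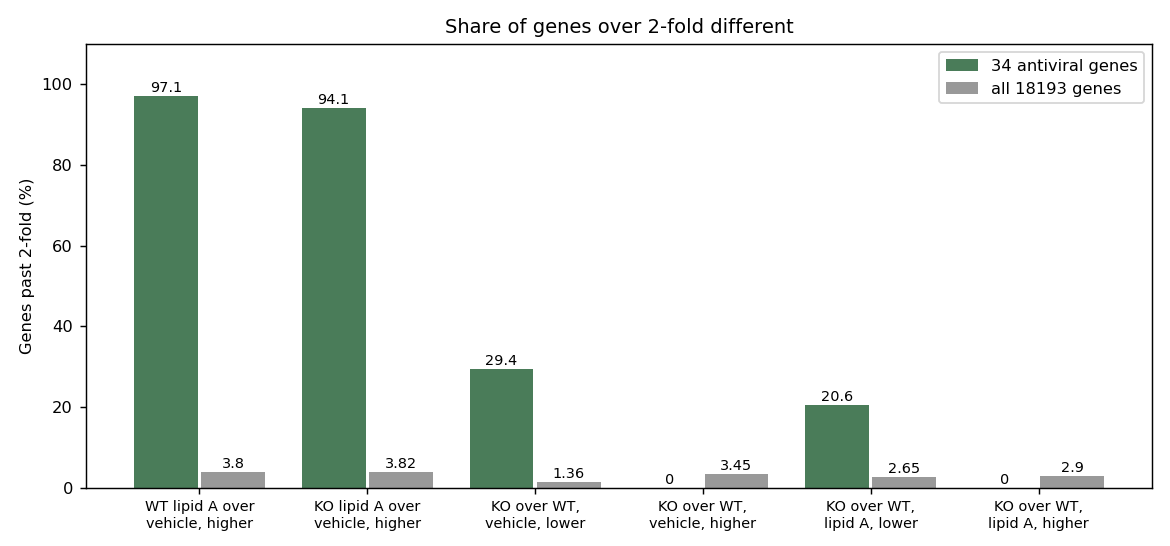
Share of genes over 2-fold different in 6 comparisons, in percent, for the 34 antiviral genes (green) and all 18193 genes (grey), from 1 array per condition. The green bars stand at 97.1 and 94.1 for higher signals with lipid A in WT and KO, and at 29.4 and 20.6 for lower signals in KO with vehicle and with lipid A.

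The IFIT proteins bind foreign RNA that lacks the cap marks of host mRNA and keep it from the ribosome. They gave the highest median response of any role, and all 4 were lower in KO with lipid A. Ifit1 gave 272 with vehicle and 32711 with lipid A in WT, and 93.5 and 20149 in KO. Its response was 120-fold in WT and 215-fold in KO, while KO was 2.91-fold lower than WT with vehicle and 1.62-fold lower with lipid A. The genotypes were thus closer with lipid A than with vehicle.

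Ifit2 gave 302, 29509, 12.8 and 11740.4 in the same order, and its vehicle signal in KO was under the array median. It was at least 3.59-fold lower in KO with vehicle and 2.51-fold lower with lipid A, with responses of 97.6-fold in WT and at least 139-fold in KO. Ifit3 gave 122, 9869 and 3528 in WT vehicle, WT lipid A and KO lipid A, and 49.8, under the median, in KO vehicle. It was 2.80-fold lower in KO with lipid A, the largest such difference in the list, and at least 1.44-fold lower with vehicle. Its response was 81.2-fold in WT and at least 41.9-fold in KO. Ifit1bl1, an IFIT1-like gene of the same cluster, was under the median in both genotypes with vehicle (1.0 in WT and 80.2 in KO), and reached 1897 in WT and 896 in KO with lipid A. This is a 2.12-fold lower signal in KO, with responses of at least 29.1-fold and at least 10.6-fold.

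The OAS family includes the enzymes that make 2-5A, the second messenger that activates the RNA-cutting enzyme RNase L, and the OAS-like proteins. Its members split by genotype. Oas1a, which makes 2-5A, gave 4253 and 15464 in WT and 2813 and 9553 in KO, vehicle first. It was 1.51-fold lower in KO with vehicle and 1.62-fold lower with lipid A, with nearly equal responses of 3.64-fold and 3.40-fold. The other synthetases behaved alike in size: Oas2 gave 191 and 972 in WT and 149.7 and 889.6 in KO, in the same order, and responses of 5.08-fold and 5.94-fold. Oas3 gave 219 and 915 in WT and 176 and 605 in KO, with responses of 4.17-fold and 3.44-fold. None of the 3 reached 2-fold between genotypes.

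The OAS-like pair stood at opposite ends of the family with vehicle, though not with lipid A. Oasl2 gave 699 in WT vehicle and 196 in KO vehicle, 3.57-fold lower, but 4477 and 3404 with lipid A, only 1.32-fold lower. Its response was 6.41-fold in WT and 17.4-fold in KO, a 2.71-fold gap. Oasl1, which in the mouse holds back translation of the interferon regulator Irf7, was the one member whose KO signals exceeded the yardstick in the other direction under both treatments. It gave 159 in WT vehicle and 298 in KO vehicle (1.87-fold higher), and 4778 and 6945 with lipid A (1.45-fold higher). Oasl1 and Oasl2 are adjacent protein-coding genes on chromosome 5.

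The Mx GTPases trap viral nucleocapsids, although Mx1 is known to make no working protein in C57BL/6 and most other inbred strains. Both were near background with vehicle. Mx1 gave 61.9 in WT and 58.8 in KO with vehicle, both under the median, and 5254 and 2927 with lipid A, 1.80-fold lower in KO. It responded at least 80.7-fold in WT and at least 34.8-fold in KO. Mx2 gave 11.6 in WT vehicle, under the median, and 113 in KO vehicle, so that KO was at least 1.73-fold higher. With lipid A the order turned, with 1121 in WT and 503 in KO, 2.23-fold lower. The response of Mx2 was at least 17.2-fold in WT and 4.46-fold in KO, a gap of at least 3.86-fold.

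Of the ISG15 system, Usp18 and Herc6 were measured. ISG15 is a ubiquitin-like tag, Herc6 is the main ligase that attaches it in the mouse, and Usp18 removes it and also restrains signalling at the interferon receptor. Usp18 gave 626 and 14349 in WT and 395 and 7800.1 in KO, vehicle first, and was 1.58-fold and 1.84-fold lower in KO. Herc6 gave 697 and 5350.1 in WT and 343 and 4355 in KO, and was 2.03-fold lower in KO with vehicle, just past the threshold, and 1.23-fold lower with lipid A. Both responded strongly in both genotypes, Usp18 at 22.9-fold and 19.7-fold and Herc6 at 7.68-fold and 12.7-fold. The 3 further probe sets of Herc6 were also lower in KO under both treatments.

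Among the sensors, Ifih1 (MDA5) recognises long double-stranded RNA, Dhx58 (LGP2) assists it, Eif2ak2 (PKR) stops translation on binding double-stranded RNA, and Zbp1 senses Z-form nucleic acids and can start necroptosis. Zbp1 had a vehicle difference past 3-fold on its brightest probe set. It gave 645 in WT vehicle and 141 in KO vehicle, 4.57-fold lower, but 2860.4 and 2157 with lipid A, 1.33-fold lower. Its response was 4.43-fold in WT and 15.3-fold in KO. A second, dimmer probe set for Zbp1 gave 117 and 102 with vehicle (log2 -0.20) and 1603 and 1197 with lipid A (log2 -0.42), so the vehicle difference held on 1 probe set of 2.

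Eif2ak2 gave 352 in WT and 120.2 in KO with vehicle (2.93-fold lower), and 2438 and 1413 with lipid A (1.73-fold lower). Its further probe sets did not show this with vehicle, at log2 differences of -0.18 and 0.11, while with lipid A they were at -1.06 and -0.08. Dhx58 gave 295 and 2380.4 in WT and 179.8 and 1142 in KO, and was 1.64-fold lower in KO with vehicle and 2.08-fold lower with lipid A. One of its dimmer probe sets, near background, pointed the other way with lipid A (log2 0.53). The genotypes were within the yardstick for Ifih1, at 1329 and 19071 in WT and 1016 and 20631 in KO, with responses of 14.4-fold and 20.3-fold. Ifi203, a member of the AIM2-like receptor family, had the lowest KO response of the list, at 120.1 and 249.6 in WT and 154 and 177 in KO, 2.08-fold and 1.15-fold.

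Among enzymes that act on nucleotides and RNA, Rsad2 (viperin) makes a chain-terminating nucleotide from CTP, and Cmpk2, its neighbour on chromosome 12, is a mitochondrial nucleotide kinase. They differed between genotypes alike with vehicle. Rsad2 gave 2816 in WT and 1058 in KO with vehicle (2.66-fold lower) and 83419 and 72948 with lipid A (1.14-fold lower). The lipid A signals of Rsad2 were near the top of their arrays, whose highest signals were 114744 and 126693, and whether such signals are compressed was not tested. Its 2 further probe sets were lower in KO by more with lipid A, at log2 -1.03 and -0.64, and alike with vehicle, at -1.56 and -1.94. Cmpk2 gave 383 and 20294 in WT and 144 and 10298 in KO, 2.67-fold lower with vehicle and 1.97-fold lower with lipid A, with responses of 52.9-fold and 71.7-fold.

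The other enzymes of this role were less alike. Isg20, an exonuclease that degrades single-stranded RNA, gave 149 and 1887 in WT and 102 and 804 in KO, and was 1.46-fold lower with vehicle and 2.35-fold lower with lipid A. Samhd1, which depletes the nucleotides that retroviruses need, gave 1745 and 5341 in WT and 1925 and 3388 in KO. It was 1.10-fold higher in KO with vehicle and 1.58-fold lower with lipid A, and all 5 of its probe sets were lower in KO with lipid A, whereas with vehicle they did not share a direction. Adar, an RNA-editing enzyme, gave 702 and 1618 in WT and 571 and 1702 in KO and differed by at most 1.23-fold between genotypes on its brightest probe set.

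The regulators of ubiquitin, ADP-ribose and nuclear bodies had the smallest median genotype differences of any role, and 7 of 8 stayed within 2-fold between genotypes under both treatments. Parp9, Dtx3l and Parp14 lie side by side on chromosome 16, and Parp9 and Dtx3l work as a ubiquitin ligase pair. Parp14, a mono-ADP-ribosyltransferase, gave 1119 and 18779 in WT and 991 and 18305 in KO, with responses of 16.8-fold and 18.5-fold and differences of 1.13-fold and 1.03-fold. Dtx3l gave 656 and 5712 in WT and 586 and 4211 in KO. Parp9 gave 1048 and 6733 in WT and 829.9 and 5633 in KO. All 3 genes of this locus were thus within 1.36-fold between genotypes, unlike Rsad2 and Cmpk2.

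Trim21, a cytosolic antibody receptor and ubiquitin ligase, gave 811 and 4032 in WT and 911 and 3424 in KO. Trim30a gave 2142 and 15057 in WT and 1680.0 and 12180.0 in KO. Their differences, from 1.12-fold higher to 1.28-fold lower in KO, lay within the yardstick. Sp100, a nuclear body protein, gave 243 and 966 in WT and 219 and 620.5 in KO, and Ifi35 gave 4633 and 22370.1 in WT and 4004 and 15848 in KO. They were 1.56-fold and 1.41-fold lower in KO with lipid A. The exception of this role was Xaf1, which counters the cell death inhibitor XIAP, at 1370.5 in WT and 440.4 in KO with vehicle (3.11-fold lower) and 11473 and 8395 with lipid A (1.37-fold lower). Its response was 8.37-fold in WT and 19.1-fold in KO. The second probe set of Xaf1 was near background, at 79.3 and 63.8 with vehicle, and gave no vehicle difference.

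The membrane and ER proteins gave the lowest median response of any role, and among them Bst2 was low in KO to a similar degree under both treatments. Bst2 (tetherin) holds budding virus particles on the cell surface. It gave 3489 with vehicle and 6506 with lipid A in WT, and 1070.3 and 2583 in KO, so that KO with lipid A did not reach the level of WT with vehicle. KO was 3.26-fold lower with vehicle and 2.52-fold lower with lipid A, and the responses were 1.86-fold and 2.41-fold. Bst2 has 1 probe set, and its promoter stretch is printed above. Ifitm3, which blocks viral entry at endosomes, was slightly higher in KO, at 12950.2 and 29694 in WT and 15589 and 32558 in KO (1.2-fold and 1.1-fold). Tor3a, a torsin ATPase of the ER, gave 2299 and 6494 in WT and 1885 and 4231 in KO, 1.22-fold and 1.54-fold lower.

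The difference between the responses of KO and WT is the same quantity as the lipid A difference less the vehicle difference. It was over 2-fold in favour of KO for 4 genes, Oasl2, Zbp1, Rsad2 and Xaf1, against 2.64% of all genes. All 4 were among those over 2-fold lower with vehicle, which follows by arithmetic because all 4 were also lower in KO with lipid A. On further probe sets the log2 value was -0.22 for Zbp1 and 0.53 and 1.29 for Rsad2. The difference of responses was over 2-fold in favour of WT for 3 genes, Ifit1bl1, Mx1 and Mx2, against 5.32% of all genes. For Ifit1bl1 and Mx1 both responses are lower bounds, so this order cannot be read as measured. The median over the list was -0.12 on the log2 scale and 0.04 over the 29 genes measured on all 4 arrays.

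Vehicle signal, taken as the mean of both genotypes, divided the list into 3 classes. For the 4 genes under the mean array median (Ifit2, Ifit1bl1, Mx1 and Mx2), the median response was at least 48.5-fold in WT and at least 19.2-fold in KO, and KO was 2.17-fold lower with lipid A. The 17 genes up to 10 times the median had responses of 7.68-fold and 11.8-fold, with 6 over 2-fold lower in KO with vehicle and 3 with lipid A. The 13 genes above that had responses of 4.97-fold and 3.96-fold, with 3 and 1 over 2-fold lower. Over all genes, whatever their vehicle signal, 1.36% were over 2-fold lower in KO with vehicle and 2.65% with lipid A. Since vehicle signals define the classes and enter the responses, this order is a description and a class belongs to the probe set. Genes with and without an ISRE core in the window did not separate: the medians were 2.79 and 3.0 on the log2 scale for the WT response, -0.39 and -0.42 for KO over WT with vehicle and -0.60 and -0.47 with lipid A, over 13 and 12 measured genes. Another 9 measured genes had no window. Of the genes over 2-fold lower in KO with vehicle, Ifit1, Eif2ak2, Rsad2 and Bst2 held a core. Ifit2, Oasl2, Herc6, Cmpk2 and Xaf1 had windows without a core, and Zbp1 had no window.

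Further probe sets of the same genes largely kept the direction. Of the 27 further probe sets, 24 gave a value for the WT response, of which 22 had the direction of the brightest one, and 19 of 20 did for the KO response. For KO over WT, 13 of 19 agreed in direction with vehicle and 24 of 26 with lipid A. The 6 that differed with vehicle belonged to Adar, Eif2ak2, Ifi35, Samhd1 and Tor3a.

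The interferon pathway itself was read from 27 genes, of which 24 were measured. Of the 24, the lipid A signal was over 2-fold higher for 8 in WT and 9 in KO, against 3.80% and 3.82% of all genes. The lipid A signal was over 2-fold lower for 1 in WT and 0 in KO, against 2.52% and 6.61%. Ifnb1, the interferon-beta gene, was above the array median only in KO with lipid A (108), against 65.9 in WT with lipid A. Ifna1 was above the median on both WT arrays, at 96.6 with vehicle and 102 with lipid A, and under it on both KO arrays, at 22.6 and 21.5. Ifna2, Ifna4 and Ifng were under the median on every array. The receptor chain Ifnar1 gave 1085 and 1244 in WT and 1178 and 2417 in KO, vehicle first, and Ifnar2 gave 4744 and 5708 in WT and 2999 and 4298 in KO. The ligand signals were thus near or under the array medians, while both receptor chains were well above them.

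Of the factors that act on the ISRE, Irf7 was lower in KO with vehicle and Irf5 higher. Irf7 gave 535 in WT and 168 in KO with vehicle (3.19-fold lower), and 2931 and 1695 with lipid A (1.73-fold lower). Irf9 gave 583 and 2136 in WT and 457 and 2378 in KO, and Stat2 gave 96.3 and 413.5 in WT and 108 and 467 in KO, both within 1.28-fold between genotypes. Irf1 gave 1879 and 21439 in WT and 1626 and 21204 in KO. Irf5 gave 1023 and 1972 in WT and 1672 and 2009 in KO, and Irf3, which needs no induction to act, gave 1143 and 891 in WT and 1439 and 1189 in KO. Between genotypes, 4 pathway genes were over 2-fold lower in KO with vehicle, Irf7, Ifngr2, Ikbke and Socs3, against 1.36% of all genes. With vehicle 0 were higher, against 3.45%. With lipid A, 0 were lower, against 2.65%, and 2 were higher, against 2.90%. These were Socs3, a feedback inhibitor of cytokine receptors, at 2484 in WT and 14394 in KO, and Ticam1. Ticam1, which encodes TRIF, gave 119.8 and 273. The medians of the pathway list were -0.09 with vehicle and 0.03 with lipid A on the log2 scale.

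Related lists were set beside the antiviral genes, without a test, since 1 array per condition allows none. Of 34 further interferon-stimulated genes measured, 27 in WT and 23 in KO were over 2-fold higher with lipid A, while 4 were over 2-fold lower in KO with vehicle and 2 with lipid A. Their median KO over WT was -0.01 and -0.41 on the log2 scale. Of 10 interferon-inducible GTPases, 9 were higher with lipid A in each genotype, 4 were lower in KO with vehicle and 2 with lipid A. Of 5 lymphocyte CXC chemokines, 2 in WT and 3 in KO were higher with lipid A, 1 was lower in KO with vehicle and 0 with lipid A. Among all genes, 3.80% in WT and 3.82% in KO were over 2-fold higher with lipid A. Over 2-fold lower in KO were 1.36% of all genes with vehicle and 2.65% with lipid A.

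Cell makeup and genotype were checked on the same arrays. All 8 macrophage markers were at or above the median on all 4 arrays, and their summed signals lay between 159993 and 205812. Among them Adgre1, which encodes F4/80, gave 10187 in WT and 3726 in KO with vehicle and 9216 and 6633 with lipid A. Vehicle first here and below, the 5 measured B cell markers summed to 2283 and 2121 in WT and 5204 and 4805 in KO. The WT sum was mostly Cd22, at 1949 and 1880 in WT and lower in KO, at 1618 and 1012. Ms4a1 ran the other way, at 143 and 130 in WT and 2399 and 2931 in KO. So did Cd79b, at 97.4 and 41.7 against 976 and 654, while Cd79a and Pax5 were nearer the array medians. The 5 markers of resident large peritoneal macrophages summed to 280.4 and 221 in WT against 1249 and 1049 in KO. Of these, Timd4 and Garnl3 were under the median on every array. The 6 measured T and NK cell markers summed to 169 and 275 against 588 and 637. Only 0 and 1 of them were at or above the median in WT, and 2 and 5 in KO. Their sums are thus largely near background, and their median difference with vehicle was 0. The 7 measured neutrophil markers summed to 1942 and 1975 in WT against 1021 and 922 in KO, a sum made up mostly of S100a8 (1727 and 1721 against 569 and 676), and their median difference between genotypes was 0. The 8 mesothelium and fibroblast markers summed to 1641 and 1449 against 904 and 744, a sum mostly of Dcn, Col1a2 and Col3a1. The median difference of the 8 markers was 0 with vehicle and -0.41 on the log2 scale with lipid A. Msln ran the other way, at 6.7 in WT, under the median, and 119 in KO with vehicle. Col1a1 was higher in KO with vehicle only, and Upk3b and Wt1 were under the median on every array. Of the 5 plasmacytoid dendritic cell markers, the sums were 923 and 905 against 1309.7 and 1187, and Siglech was under the median on every array. These shifts ran with genotype, and their part in the genotype differences was not tested. Setdb1 gave 589 and 521 in WT and 346 and 386 in KO, and the position of its probe set relative to the deleted part is not known here, so it does not check the labels. The array medians differed by up to 0.37 on the log2 scale (KO vehicle above WT vehicle). With all arrays brought to a common median, 12 genes were over 2-fold lower in KO with vehicle, against 3.79% of all genes. The list's median was then -0.72.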

How the data were processed

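RNA of adherent peritoneal macrophages was hybridised to Affymetrix mouse expression arrays, 1 per condition. What the authors deposited is a table of linear intensity values, made with software not given in the sources used. Without the highest and lowest 2% of values, each array had a mean of 500.004, from which a global scaling was inferred. Authors' detection and change calls were not used here.

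Of 45101 probe sets, 64 controls were left out, and 34945 of the rest had a single symbol in the platform annotation, giving 18193 genes. The brightest probe set by mean log2 signal stood for a gene. Signals under the median of their array were set to that median, and a pair that were both under it, or whose order this step would turn, was given no difference. Differences were taken on the log2 scale and counted past 2-fold. With 1 array per condition no test was run, and the number of arrays limits the precision. Counting was tested on simulated data. The members, their roles and the comparison lists were chosen with earlier results of these data known. All members could be named, all genes of the pathway list, and at most 3 of each comparison list by size of the genotype difference. Gbp6 and Tlr3 were named beyond this rule.

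Alternatives were other array scalings, floors, probe set rules and fold thresholds, and a common floor at the highest array median, the last chosen after seeing the data. Promoter windows and start sites came from RefSeq, build GRCm38.p6. Python 3.11.15, numpy 2.4.6, pandas 2.3.3 and matplotlib 3.10.9 were used.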

Additional observations from a re-analysis of the deposited data

Results flagged for a closer look

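Mx2 pointed in opposite directions between genotypes under the 2 treatments, at 0.79 on the log2 scale for KO over WT with vehicle and -1.16 with lipid A. The vehicle value is a lower bound, since the WT vehicle signal of 11.6 was under the median of its array, and the difference between treatments was not tested.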

How the results depend on the processing

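Of 34 genes, 31 to 33 in WT and 29 to 32 in KO were over 2-fold higher with lipid A under other scalings, floors and probe sets. The share of all genes ran from 2.64% to 18% in WT and from 3.22% to 16.2% in KO, highest without a floor. Of the 29 measured on all 4 arrays, 28 and 27 were, against 5.21% and 6.09% of such genes. The 10 genes lower in KO with vehicle became 5 on the second brightest probe set, against 1.43% of all genes. Herc6, Eif2ak2, Zbp1, Cmpk2 and Xaf1 were lost there. Ifit1, Ifit2, Oasl2 and Bst2 have 1 probe set and could not be lost by this rule. Of the called genes with a second probe set, only Rsad2 stayed. At over 3-fold the count was 5, against 0.412%. Ifit1 and Ifit2 were lost with a floor at 2 times the array median, which left 8, against 0.995% of all genes. Eif2ak2 and Xaf1 were lost with the median signal of the probe sets. The 7 lower with lipid A became 3 without a floor on the genes measured on all 4 arrays, 17 at over 1.5-fold and 0 at over 3-fold. The 0 higher in KO with vehicle became 2 without a floor, 2 with a floor at the 25th percentile, 1 on the second brightest probe set and 2 at over 1.5-fold. The median of the response difference, -0.12, turned to 0.24 with arrays scaled to a common median and to 0.045 on the genes measured on all 4 arrays. On the second brightest probe set, the WT response of Dhx58 was -0.13, its KO over WT with lipid A 0.53, and Eif2ak2 was at 0.11 for KO over WT with vehicle. The WT response of Samhd1 was -0.054 when the median signal of its 5 probe sets was taken on each array, whereas 4 of the 5 were higher with lipid A. The causes were not tested. Of 1340 values of single genes under 10 alternatives, 1243 moved by at most the spread between probe sets and 93 moved by more. The other 4 were differences over 2-fold that changed sign, and sign changes of smaller differences were not counted apart. Genes with 1 probe set could not move under the probe set rules. No paired analysis was possible because each condition has 1 array and the labels carry no replicate numbers, and no array could be left out for the same reason. Signals near background limit the folds of Ifit2, Ifit3, Ifit1bl1, Mx1 and Mx2.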

Other observations

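The genes of the related lists given here were picked for the size of their genotype difference, so no trend between treatments is read from them. Gbp2, an interferon-inducible GTPase of the guanylate-binding family, gave 4816 in WT and 561 in KO with vehicle (8.58-fold lower), and 22755 and 24431 with lipid A. Its response was 4.73-fold in WT and 43.5-fold in KO. Gbp3 was 2.69-fold lower in KO with vehicle and 1.3-fold lower with lipid A, and Irgm1, an immunity-related GTPase, 2.5-fold and 1.81-fold lower. Rtp4, a further interferon-stimulated gene, gave 1575 in WT and 440.1 in KO with vehicle (3.58-fold lower), and 23449.5 and 22934 with lipid A. Cxcl16, a membrane-bound chemokine, gave 2583 in WT and 360.4 in KO with vehicle (7.17-fold lower) and 4249 and 5109.7 with lipid A. Lgals3bp, a secreted galectin-binding protein, kept its difference as Bst2 did, at 7905 and 1616 with vehicle (4.89-fold lower in KO) and 11821 and 3869 with lipid A (3.06-fold lower). Gbp6 and Tlr3, named after their values were seen, were lower in KO with lipid A only, at log2 0.19 and 0.25 with vehicle and -1.21 and -1.40 with lipid A. Cxcl10, a chemokine for activated T cells, was under the median with vehicle in both genotypes and reached 18979.7 in WT and 12271 in KO with lipid A, 1.55-fold lower. Cxcl9 was also under the median with vehicle in both genotypes. With lipid A it was 1.55-fold higher in KO, at 150 in WT and 232 in KO.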
